A study of Drosophila melanogaster with 3 samples.

Results

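Nuclear genes for oxidative phosphorylation were examined in a chromatin immunoprecipitation sequencing (ChIP-seq) data set for Bdp1 of Drosophila melanogaster. They were chosen by name from the Ensembl BDGP6 annotation, as protein-coding genes outside the mitochondrial genome whose names start with ND-, with Sdh followed by A to D, with UQCR-, with COX followed by a digit, or with ATPsyn. The rule found 87 of 13968 protein-coding genes. Of these, 40 belong to complex I, 7 to complex II, 9 to complex III, 16 to complex IV and 15 to complex V.

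The chromatin came from whole embryos, 0 to 24 h old, with both sexes pooled, of a transgenic line that makes CG9305 (Bdp1) with GFP at its C terminus, and it was precipitated with an antibody against GFP. All embryos carried the tagged protein, so the 3 biological replicates form 1 group, and the comparisons are between genes. The labels do not give the promoter of the transgene, whether the untagged gene was still present, or how many clones the line stands for. A whole embryo mixes all tissues, so fewer cells that bind and less binding per cell cannot be told apart.

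Bdp1 belongs to TFIIIB, which brings RNA polymerase III to tRNA, 5S rRNA and other short genes. The oxidative phosphorylation genes are transcribed by RNA polymerase II. Complex I takes electrons from NADH and complex II from succinate, complex III passes them to cytochrome c, complex IV reduces oxygen, and complex V (ATP synthase) uses the resulting proton gradient to make ATP. In Drosophila many of these subunits have a duplicate gene, with L after the name, and many such duplicates are known to be expressed mainly in the testis.

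A gene was counted as having a peak when a peak overlapped, by 1 bp or more, the 100 bp on either side of any of its transcript 5' ends. The main list holds the 3206 optimal peaks that passed the authors' test of reproducibility (IDR) over the replicates. Each replicate also has its own relaxed list of 30000 regions, which includes background by design, and from it the 3206 strongest were taken for a value in each replicate. The signal of a gene is that of the strongest relaxed peak in its window, divided by that replicate's median over the optimal peaks, so that 1 is a typical optimal peak. The scales were 43.5, 56.3 and 50 signal units in replicates 1, 2 and 3. The files give no read totals, so the depth behind these values is unknown.

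Most of the genes with a peak had a neighbour that starts close upstream and is transcribed the other way. Some of these stretches are printed first, because the summit of the optimal peak, around which the capitals run, falls between both starts of transcription. Each is the whole sequence between the 5' ends of the neighbour and of the named gene, from genome assembly dm6 as held by RefSeq, 5' to 3' on the strand of the named gene, so that the named gene starts just after the last base. ND-51 is on the minus strand of 2L (chr2L:6062758-6062988, 231 bp, to CG13994), ND-SGDH on the minus strand of 3L (chr3L:12138585-12138867, 283 bp, to RhoGAP68F), COX6B on the minus strand of X (chrX:19744336-19744430, 95 bp, to CG33932 and Rpp20) and COX7B on the plus strand of 3L (chr3L:17425218-17425476, 259 bp, to Sec3).
ND-51: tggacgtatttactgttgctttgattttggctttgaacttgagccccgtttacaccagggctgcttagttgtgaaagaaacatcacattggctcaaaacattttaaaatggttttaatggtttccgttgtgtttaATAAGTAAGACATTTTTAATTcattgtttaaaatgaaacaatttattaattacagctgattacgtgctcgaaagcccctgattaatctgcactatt
ND-SGDH: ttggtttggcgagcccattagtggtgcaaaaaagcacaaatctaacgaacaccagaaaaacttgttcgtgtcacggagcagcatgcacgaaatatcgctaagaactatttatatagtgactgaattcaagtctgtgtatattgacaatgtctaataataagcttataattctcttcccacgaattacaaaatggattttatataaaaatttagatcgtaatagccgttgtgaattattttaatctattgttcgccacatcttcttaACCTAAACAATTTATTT
COX6B: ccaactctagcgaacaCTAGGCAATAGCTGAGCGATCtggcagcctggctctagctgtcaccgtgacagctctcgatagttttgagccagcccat
COX7B: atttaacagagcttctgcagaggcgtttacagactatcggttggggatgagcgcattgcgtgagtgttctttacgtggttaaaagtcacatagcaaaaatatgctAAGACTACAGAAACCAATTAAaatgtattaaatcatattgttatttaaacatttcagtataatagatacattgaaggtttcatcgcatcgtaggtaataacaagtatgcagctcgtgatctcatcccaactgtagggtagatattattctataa
The capitals cover 21 bases centred on the summit, or 17 for ND-SGDH, where the stretch ends first. G and C made up 33.8, 32.9, 54.7 and 35.1% of the bases of the ND-51, ND-SGDH, COX6B and COX7B stretches.

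A complex I gene and its duplicate are printed as a pair, since the first had a peak and the other had none in any list. For ND-24 the whole 41 bp between its outermost 5' end and that of corolla is given (chrX:17632048-17632088, plus strand). For ND-24L the 100 bp before its 5' end are given (chr3L:17320812-17320911, minus strand). Neither has capitals, because the ND-24 summit lies 100 bp inside the gene and ND-24L has no summit.
ND-24: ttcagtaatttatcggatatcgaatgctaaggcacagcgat
ND-24L: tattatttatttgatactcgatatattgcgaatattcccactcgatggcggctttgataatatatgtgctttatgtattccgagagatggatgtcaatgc
ND-24 thus has an oppositely transcribed neighbour, and ND-24L has none within 500 bp.

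Of the 87 genes, 13 had an optimal peak (14.9%, 95% exact Clopper-Pearson interval 8.2 to 24.2%), against 13.7% of all protein-coding genes. The 13 were ND-24, ND-42, ND-51, ND-B17, ND-B22, ND-MWFE and ND-SGDH of complex I, COX5A, COX6B and COX7B of complex IV, and ATPsynC, ATPsynE and ATPsynF of complex V. The share of the oxidative phosphorylation genes was thus close to that of genes in general. The interval covers counting error over genes, and genes are not replicates.

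By complex, 7 of 40 genes of complex I had a peak (17.5%, interval 7.34 to 32.8%), 3 of 16 of complex IV (18.8%, 4.05 to 45.6%) and 3 of 15 of complex V (20%, 4.33 to 48.1%). None of the 7 genes of complex II had one (0 to 41%), nor any of the 9 of complex III (0 to 33.6%). All 5 intervals contain the 13.7% of the background. They are wide, most of all with few genes, so these counts neither separate a complex from genes in general nor show that it is alike. The complexes also differ in their share of duplicate genes. With the duplicates left out, 20.6% of complex I (7 of 34), 37.5% of complex IV (3 of 8) and 27.3% of complex V (3 of 11) had a peak, with intervals that also contain 13.7%. Where a peak had to be among the strongest in both remaining replicates, 9.2% of the members had one without replicate 3 (7.95% of all genes), and complex V fell to 6.67% without replicate 2 or replicate 3 (9.83 and 7.95% of all genes).

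The replicates gave the same picture. Among the 3206 strongest relaxed peaks, 12, 10 and 15 of the 87 genes had a peak in replicates 1, 2 and 3 (13.8, 11.5 and 17.2%; 14.2% ± 2.89, SD, n = 3), where all protein-coding genes had 13.2, 11.5 and 15.1%. The 87 differed from the other protein-coding genes by 0.566, 0.00373 and 2.16 percentage points in replicates 1, 2 and 3, so replicate 2 was a near tie. The average was 0.909 points ± 1.12 (exact two-sided sign-flip permutation test, p = 0.25, the smallest p that 3 replicates allow). In the full relaxed lists the differences were 3.45, -4.45 and 7.48 points, with the sign turned around in replicate 2 (exact sign-flip permutation p = 0.75). A peak among the strongest of all 3 replicates was found at 8 of the 87 genes (9.2%), against 7.08% of all protein-coding genes. Complex I gave 20, 12.5 and 15% in the 3 replicates, complex IV 18.8, 12.5 and 18.8% and complex V 6.67, 20 and 26.7%. Complexes II and III stood at 0 in replicates 1 and 2 and had 1 gene each in replicate 3, SdhD and UQCR-Q. Complexes I, IV and V were above complexes II and III in every replicate, but no complex of the first 3 stayed above another of them in all replicates. In replicate 3 complex I was only 0.714 points above complex II. With the duplicate genes left out, complex II (1 of 4 genes, 25%) was above complex I (17.6%) in replicate 3, so this order depends on the duplicates. Over the 10 pairs of complexes the exact sign-flip p ranged from 0.25 to 1, and adjustment over the pairs cannot bring it lower.

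**Figure D1:**
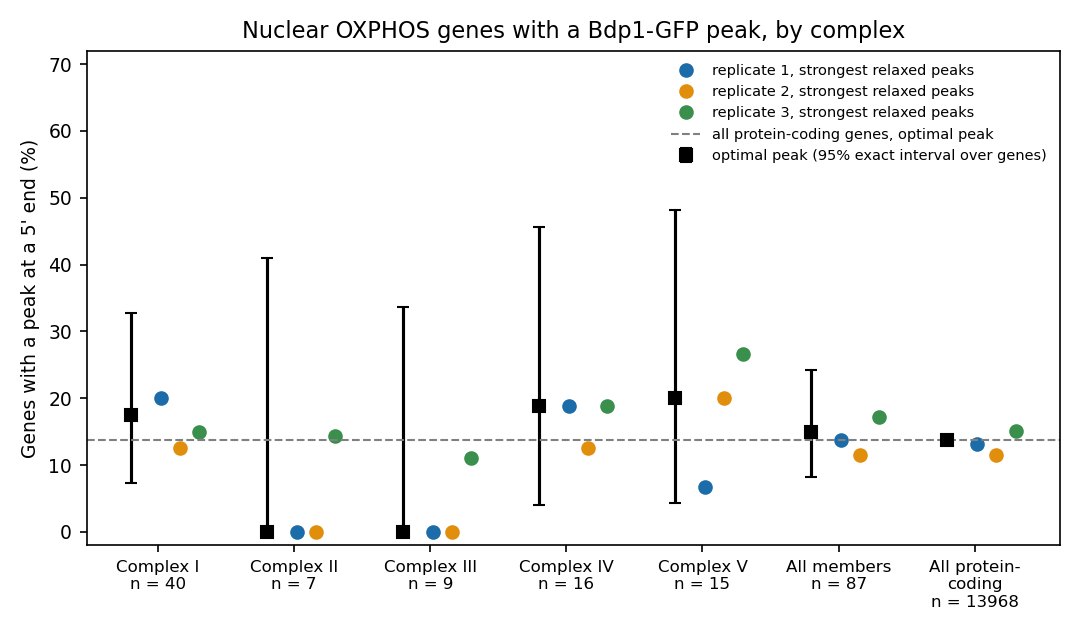
Share of genes (%, y axis) with a Bdp1-GFP peak at a 5' end, for complexes I to V, all 87 members and all protein-coding genes. Squares with bars are the optimal peaks with 95% exact intervals over genes, coloured points are the 3206 strongest relaxed peaks of each replicate, and the dashed line is the 13.7% of all protein-coding genes, which lies within the bar of every complex.

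The duplicate genes were set beside the other members. None of the 24 duplicates had an optimal peak (0%, interval 0 to 14.2%), and 13 of the other 63 did (20.6%, 11.5 to 32.7%). None of the 24 was among the strongest relaxed peaks of any replicate either, while 19, 15.9 and 23.8% of the other 63 were. The relaxed lists, which reach much weaker regions, held no duplicate in replicates 1 and 2 and only ND-20L and ND-B14.5AL in replicate 3 (0.308 and 0.298 times the median). In the same lists 55.6, 44.4 and 63.5% of the other 63 had a region, against 36.8, 36.6 and 40.8% of all protein-coding genes. Duplicates were 51.7 percentage points ± 6.3 lower than the other members in the relaxed lists (lower in 3 of 3 replicates, exact sign-flip p = 0.25, the smallest possible) and 19.6 points ± 3.99 lower among the strongest peaks (lower in 3 of 3, p = 0.25).

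In all, 22 of the 24 duplicates (91.7%) had no relaxed region in any replicate, against 14 of the 63 others (22.2%) and 43.4% of all protein-coding genes. Most duplicates were thus empty even where the lists reach into background, and so they lay below genes in general. The other 63 lay above the remaining protein-coding genes, by 16.4 points ± 7.72 in the relaxed lists (18.8, 7.81 and 22.7 points in replicates 1, 2 and 3) and by 6.31 ± 2.21 among the strongest peaks (exact sign-flip permutation p = 0.25 each). The duplicates with a named sister that had a peak include ND-24L beside ND-24 and ND-51L1 and ND-51L2 beside ND-51, the flavin subunit that takes electrons from NADH, and none of these 3 had a region in any list. How strongly the duplicates were transcribed in these embryos was not measured here, and its part in the difference was not tested.

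**Figure D2:**
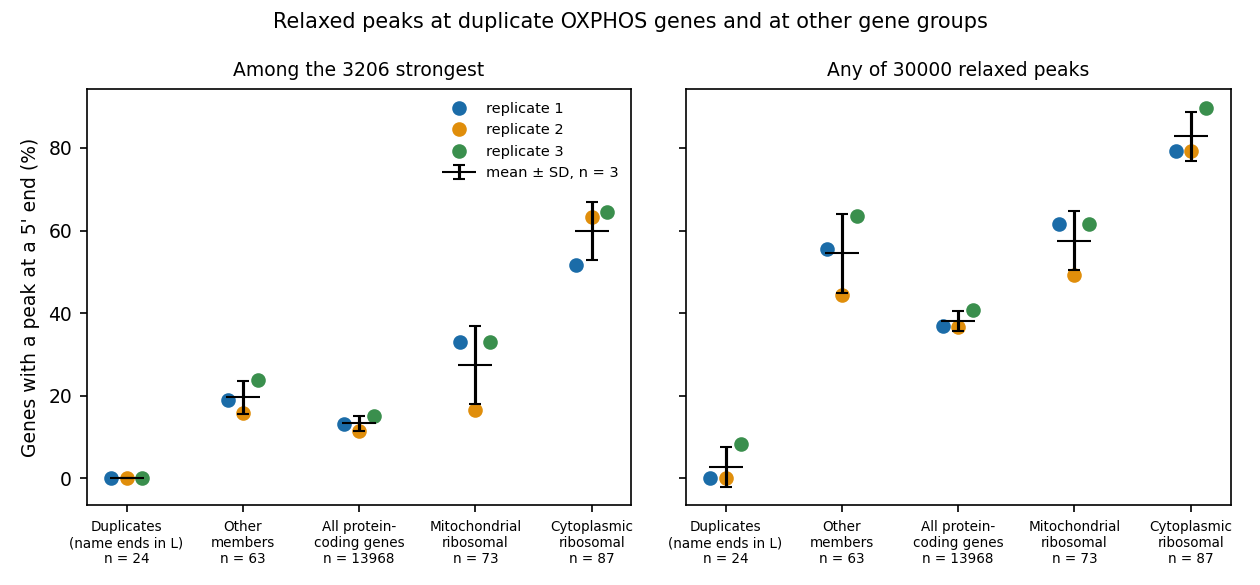
Share of genes (%, y axis) with a relaxed peak at a 5' end in each replicate (points) with mean ± SD (n = 3), for the 3206 strongest (left) and all 30000 (right). The 24 duplicates sit at 0 in every replicate but 1, the other 63 members lie above all protein-coding genes, and cytoplasmic ribosomal protein genes are highest.

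A pair of other large groups of housekeeping genes were set beside the oxidative phosphorylation genes. Of 87 cytoplasmic ribosomal protein genes 54 had an optimal peak (62.1%), and 59.8% ± 6.99 had one of the strongest peaks of a replicate. Of 73 mitochondrial ribosomal protein genes, whose products make the mitochondrially encoded subunits of complexes I, III, IV and V, 21 had an optimal peak (28.8%) and 27.4% ± 9.49 a strong one. The oxidative phosphorylation genes were 45.6 points ± 7.02 below the first and 13.2 ± 7.37 below the second, in 3 of 3 replicates each (exact sign-flip p = 0.25). With the duplicates left out, the gap to the mitochondrial ribosomal protein genes was -13.8, -0.565 and -9.07 points in replicates 1, 2 and 3 among the strongest peaks. In the relaxed lists it was -3.04 points ± 4.27 and turned around in replicate 3 (exact sign-flip permutation p = 0.5), so the 63 and the mitochondrial ribosomal protein genes did not differ beyond the spread between replicates there.

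The 13 peaks were of ordinary strength. Their median was 1.04 times the median optimal peak, from 0.505 to 1.94, and 7 of 13 exceeded 1. The median over all protein-coding genes with a peak and a value in every replicate was 0.982.

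ND-MWFE (FBgn0085468), a small accessory subunit in the membrane arm of complex I, was the strongest of the 13 (chr2R:13158287-13158682). It reached 1.86, 2.03 and 1.94 times the median in replicates 1, 2 and 3 (1.94 ± 0.0849, SD, n = 3). Its optimal peak ranked 533 of 3206. The summit, however, lay 181 bp upstream of ND-MWFE and 40 bp from a 5' end of TppII, a peptidase gene on the other strand, within its annotated transcript.

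ND-51 (FBgn0031771; chr2L:6062645-6063040) and ND-24 (FBgn0030853; chrX:17631991-17632386) encode partner proteins of the NADH-oxidising tip of complex I. ND-51 gave 1.55, 1.03 and 1.33 times the median (1.3 ± 0.263) and ND-24 1.18, 1.06 and 1.64 times (1.29 ± 0.305). The values of both genes overlapped and all 6 were above 1. The ND-51 summit lay 86 bp before its 5' end and 146 bp from that of CG13994, between both genes. The ND-24 summit lay 100 bp inside ND-24 and 142 bp from the start of corolla, a gene for a protein of the meiotic synaptonemal complex.

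ND-B22 (FBgn0032511; chr2L:13370834-13371229) is the accessory subunit next to the gene of the tagged protein. It gave 1.75, 0.873 and 1.47 times the median (1.36 ± 0.447), with a summit 6 bp upstream of one of its 5' ends. Only 316 bp lie between ND-B22 and Bdp1 itself, and the peak at the start of Bdp1, with its summit at -2882 bp from ND-B22, ranked 149. Within 10000 bp of ND-B22 there were 5 optimal peaks. The median protein-coding gene had 1, and 2.08% of them had at least as many as ND-B22. The highest number at any other member was 7. The labels do not say whether the transgene carries flanking DNA with ND-B22, and extra copies of this stretch were not tested. Without ND-B22, 12 of 86 genes had a peak (14%).

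ND-42 (FBgn0019957; chr3R:22027265-22027660), another accessory subunit, is the clearest case of a peak that belongs as well to its neighbour. In its own window it gave 0.943, 0.353 and 1.08 times the median (0.793 ± 0.387), with replicate 2 far below the others. At the summit itself replicate 2 stood at 0.823, so the low value came from a weaker region nearer to ND-42. The summit lay 246 bp upstream of ND-42 but 17 bp from the 5' end of Cchl, within the annotated 5' UTR of that gene. Cchl encodes cytochrome c heme lyase, which attaches heme to the electron carrier between complexes III and IV, so both genes on this stretch serve the respiratory chain.

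ND-SGDH (FBgn0011455; chr3L:12138393-12138788) and ND-B17 (FBgn0001989; chr2L:15750989-15751384) were the weakest of the 13. ND-SGDH gave 0.644, 0.503 and 0.623 times (0.59 ± 0.0759) and ND-B17 0.381, 0.532 and 0.601 times (0.505 ± 0.112). Their optimal ranks of 3004 and 3033 are near the end of the list. ND-SGDH was among the strongest 3206 of 1 replicate and ND-B17 of none, although both were called over the replicates together. The ND-SGDH summit was at -7 bp from its 5' end and that of ND-B17 at -109 bp, with no other gene start under the ND-B17 peak.

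COX5A (FBgn0019624; chr3R:11819366-11819761), a nuclear subunit of cytochrome c oxidase, gave 1.28, 1.45 and 1.67 times the median (1.47 ± 0.196) and was above 1 in every replicate. Its summit was 35 bp upstream of its nearest 5' end, inside the annotated 5' UTR of a longer transcript, and the oppositely transcribed gene glo starts 61 bp within COX5A. COX6B (FBgn0031066; chrX:19744206-19744601) gave 0.804, 1.13 and 1.44 times (1.12 ± 0.318). Its peak covered 4 gene starts, those of COX6B and CG18809, which share a 5' end, and those of CG33932 and Rpp20, which share another. Rpp20 encodes a protein of RNase P, the enzyme that trims the 5' ends of tRNA precursors, and its start was nearer to the summit (27 bp) than that of COX6B (69 bp). COX7B (FBgn0040793; chr3L:17425135-17425530) gave 1.19, 0.615 and 0.814 times (0.872 ± 0.29), highest in replicate 1. Its summit lay 144 bp before COX7B and 116 bp from Sec3, an exocyst gene.

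Of ATP synthase, ATPsynE (FBgn0038224; chr3R:14326780-14327175), a small membrane subunit, was highest with 0.822, 1.16 and 1.15 times (1.04 ± 0.191). ATPsynC (FBgn0039830; chr3R:31219502-31219897), whose product forms the rotating ring, gave 0.563, 0.744 and 0.824 times (0.71 ± 0.134). ATPsynF (FBgn0035032; chr2R:24599633-24600028) gave 0.429, 0.837 and 0.817 times (0.694 ± 0.23). Replicate 1 was the lowest of the 3 at each of these genes. An intron of ATPsynC holds RNaseP:RNA, the RNA of RNase P, which polymerase III transcribes in mammals, but no optimal peak lay at it, and the ATPsynC summit was 70 bp before the outermost 5' end of ATPsynC. Optimal peaks also lay 2810 bp upstream and 2839 bp downstream of the nearest ATPsynC start, with ranks 1021 and 1623. The second (chr3R:31215817-31216212) crosses the 3' end of ATPsynC at 31216145. Its summit, 3036 bp from the nearest start, lay beyond that end.

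**Figure D3:**
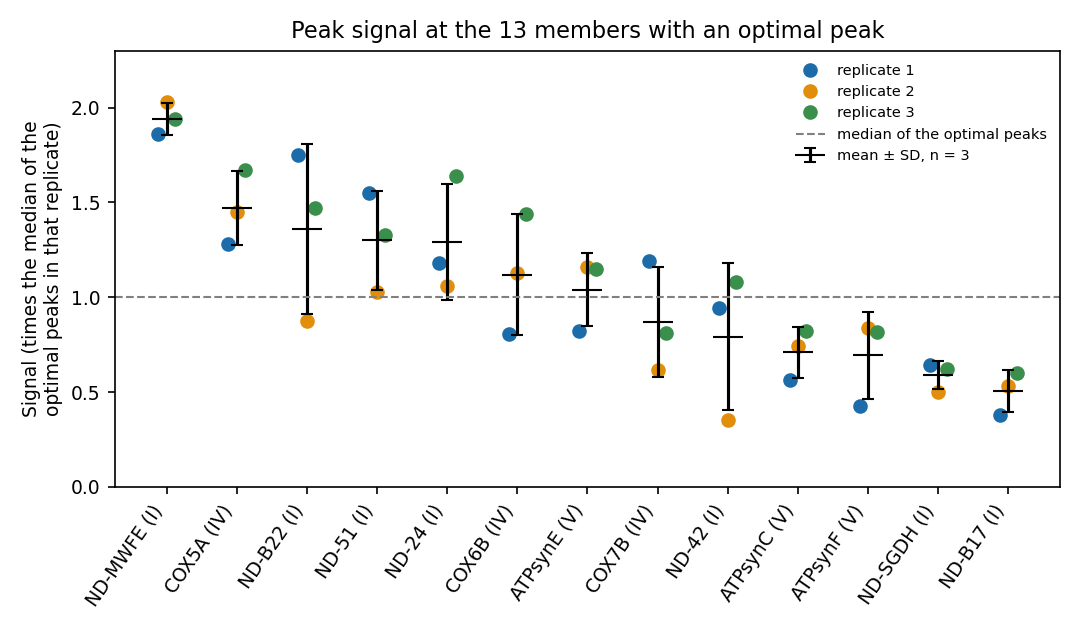
Signal at the 13 members with an optimal peak (y axis, times that replicate's median over the optimal peaks), by replicate (points) with mean ± SD (n = 3) and the complex in brackets. ND-MWFE is highest at 1.94 ± 0.0849, 7 means lie above the dashed line at 1, and below ND-MWFE the bars of neighbours in the order overlap.

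The order of the 13 is firm only at its top. ND-MWFE was above the next gene, COX5A, in every replicate. From COX5A down to ND-B17 the mean ± SD of each gene overlapped that of the next.

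Most of the member peaks were shared with other genes. The peak reached the 100 bp window around the start of another gene at 10 of 13 members (76.9%), against 56.8% of all protein-coding genes with a peak. No member peak reached a polymerase III gene, but this was rare in general, at 16 of the 1913 protein-coding genes with a peak. At 4 of 13 (30.8%), ND-42, ND-MWFE, COX6B and COX7B, the start of the other gene was nearer to the summit than that of the member, against 27.5% of all genes with a peak. Such a peak cannot be given to 1 of its genes. The summit lay within 100 bp of a 5' end of the member at 9 of 13 (69.2%), against 45.5% of all genes with a peak. From the outermost 5' end, the median summit was 69 bp upstream (from 246 bp upstream to 205 bp inside), and 83 bp upstream for all protein-coding genes with a peak.

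**Figure D4:**
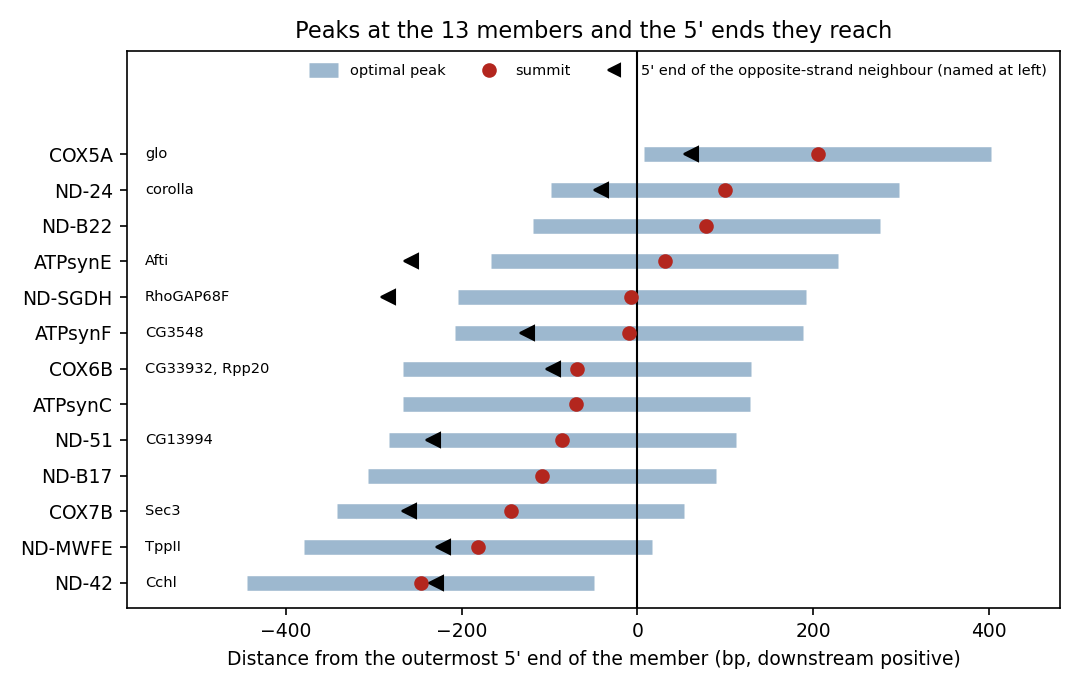
Optimal peaks (bars) and their summits (red) around the outermost 5' end of each of the 13 members (0 on the x axis, in bp, downstream positive), with the 5' end of the opposite-strand neighbour (triangles). At 10 members such a neighbour starts under or beside the peak; only ND-B17, ND-B22 and ATPsynC stand alone.

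Most of the 13 also shared an arrangement of their promoters. A gene was called head-to-head when a protein-coding gene on the other strand started within 500 bp upstream of its outermost 5' end or up to 100 bp inside it, a definition made after the data were seen. By it 35 of the 87 members were head-to-head (40.2%), against 26.7% of all protein-coding genes. Of the 13 with a peak 10 were (76.9%), of the 74 without one 25 (33.8%). Among all genes with a peak the share was 58.3%. Of the 24 duplicates 3 were head-to-head (12.5%), and of the other 63, 32 (50.8%).

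Read the other way, 10 of the 35 head-to-head members had a peak (28.6%), close to the 30% of the 3726 head-to-head protein-coding genes. Of the 52 members without such a neighbour 3 had one (5.77%), close to the 7.78% of 10242 genes. Within each arrangement the oxidative phosphorylation genes therefore had peaks about as often as other genes did. Of the members other than duplicates, 10 of 32 head-to-head genes had a peak (31.2%), and 3 of 31 without such a neighbour (9.68%). Both shares were a little above the 30 and 7.78% of all protein-coding genes. Over both arrangements together the gap was wider, with 20.6% of these members against 13.7% of all protein-coding genes. The relaxed lists were not split by arrangement. The 3 duplicates with a head-to-head neighbour, COX7AL, ATPsynbetaL and ATPsynepsilonL, had no relaxed region in any replicate.

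**Figure D5:**
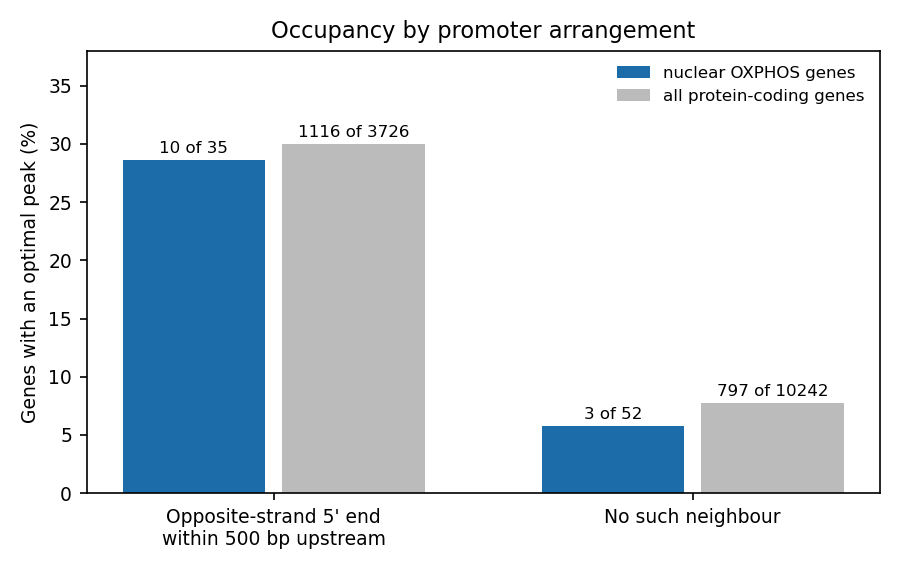
Share of genes with an optimal peak (%, y axis) by promoter arrangement, for the 87 members and for all protein-coding genes, with counts above the bars. Members stand at 28.6 and 5.77%, all genes at 30 and 7.78%.

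Below the optimal list, 9 of the 87 members had a relaxed region in every replicate, as had 1226 of 13968 protein-coding genes. ND-ASHI, an accessory subunit of complex I, stood apart from the other 8 with 2.17, 1.57 and 1.69 times the median (1.81 ± 0.318), as high as the strongest of the 13. Its ranks were 496, 802 and 695. An optimal peak at chrX:6679301-6679452, 152 bp wide and ranked 591, ended 183 bp from its 5' end and so just outside the window. Fum1, the fumarase gene of the tricarboxylic acid cycle, starts 522 bp from ND-ASHI on the other strand, and the same relaxed regions, with the same ranks, reached its window.

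The means of the other 8 were all below 1. ATPsynB, of the peripheral stalk, gave 0.473, 0.592 and 0.504 times the median, ATPsynD 0.329, 0.547 and 0.557 times, and ATPsyngamma, the central stalk, 0.47, 0.278 and 0.407 times. UQCR-Q of complex III gave 0.32, 0.315 and 1.02 times, and so was strong in replicate 3 only. ND-MNLL gave 0.882, 0.232 and 0.404 times and was high in replicate 1 only. ND-B8 (0.372 ± 0.102), COX5B (0.359 ± 0.114) and SdhC (0.394 ± 0.0802) were near ATPsyngamma (0.385 ± 0.0979). Complex V had the largest share of relaxed regions, with 60, 46.7 and 60% of its 15 genes. All protein-coding genes had 36.8, 36.6 and 40.8%. Complex I had 45, 32.5 and 47.5%, below complex V in 3 of 3 replicates (exact sign-flip p = 0.25). With the duplicates left out, complex V gave 81.8, 63.6 and 81.8%, and complex III was above it in replicate 3 (83.3%). The first place of complex V in replicate 3 thus depends on the duplicates.

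Complex II is the one complex of the chain encoded entirely in the nucleus. SdhA, which oxidises succinate, had no region in any list, and neither had SdhAL, SdhBL and SdhCL. SdhB, the iron-sulfur subunit, had a region in replicate 3 only (0.367 times). Of the membrane anchors, SdhC had one in each replicate (0.364, 0.332 and 0.485 times; 0.394 ± 0.0802) and SdhD in replicates 1 and 3 (0.473 and 0.708 times). All values of complex II were below those of a typical optimal peak.

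No relaxed region in any replicate was found at 36 of the 87 members (41.4%), near the 43.4% of all protein-coding genes. They were 14 genes of complex I, such as ND-13A, ND-18, ND-20 and ND-24L, and the 4 of complex II named above. Of complex III they were UQCR-11L, UQCR-14L, UQCR-6.4 and UQCR-6.4L. Of complex IV there were 9, such as COX4, COX4L, COX5BL and COX6AL, and of complex V 5, such as ATPsynCF6L, ATPsynGL, ATPsynbetaL and ATPsyndelta. ATPsynbeta, which carries the catalytic sites, and ND-49 are the only members on the small chromosome 4. ATPsynbeta had relaxed regions in replicates 1 and 3 (0.384 and 0.893 times) and ND-49 in replicate 1 (0.211 times), and neither had an optimal peak. Optimal peaks were rare on chromosome 4 in general, at 2.5% of its 80 protein-coding genes.

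Genes of the same pathway with other names were looked at as well. Of 8 further subunits and cytochromes c, 4 had an optimal peak, to be read, like the small counts that follow, beside the 13.7% of all protein-coding genes. RFeSP, the Rieske protein of complex III, gave 1.04, 0.266 and 0.918 times the median, with a low replicate 2. The small complex III gene ox gave 0.379, 0.81 and 1.03 times. The complex IV gene levy, a subunit 6A, gave 1.2, 0.863 and 1.18 times. Cyt-c-p, for cytochrome c, gave 0.306, 0.851 and 0.997 times, whereas Cyt-c-d had no region in any list. With RFeSP and ox counted in, complex III was therefore not empty of peaks.

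Of 15 genes for the tricarboxylic acid cycle and pyruvate dehydrogenase 3 had a peak. The aconitase gene mAcon1 was strong in every replicate, with 1.77, 2.05 and 2.43 times (2.08 ± 0.334). Of the isocitrate dehydrogenase genes, Idh3b gave 0.82, 0.777 and 1.36 times and Idh3g 2.47, 0.505 and 1.07 times (1.35 ± 1.01), highest in replicate 1. Of 10 genes for mitochondrial DNA and its expression 3 had one: mtTFB1 (0.812 ± 0.0835), PolG2 (0.651 ± 0.246) and mtSSB, with 1.52 and 1.05 times in replicates 1 and 2 and no region in its window in replicate 3. Of 5 carrier and porin genes only Mpcp2, the phosphate carrier, had one (1.12 ± 0.392). Of 5 regulators of metabolic genes only REPTOR, a transcription factor downstream of TOR signalling, had one, and at 3.33, 2.13 and 2.99 times (2.82 ± 0.616) it was above every one of the 87 members in each replicate.

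Short motifs were counted in the 250 bp before to 50 bp after the outermost 5' end, on both strands. The DNA replication-related element TATCGATA, a common core promoter motif of housekeeping genes in Drosophila, was in 9 of 87 member promoters (10.3%, against 9.36% of all), and in none of the 13 with a peak, against 14.9% of all genes with a peak. Within 100 bp on either side of the 5' end, 1 of the 13 held it (7.69%), against 11.3% of all genes with a peak. The element of nuclear respiratory genes described in Drosophila (TTACATAA, TTACGTAA, TTATATAA or TTATGTAA) was in 5.75% of member promoters and 5.18% of all. Within 100 bp on either side of the 5' end it was in 9 of 87 (10.3%) against 2.31% of all, and in 14.3% of the 63 members other than duplicates. Of those 9, 1 had an optimal peak, near the share among all members. In the longer window 2 of the 13 members with a peak held it (15.4%), against 6.01% of all genes with a peak.

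CAGCTG was in 24.1% of member promoters (17.6% of all), in 30.2% of the 63 and in 8.33% of the duplicates. CACGTG was in 4.6% (4.2% of all) and TATAAA in 55.2% (45.8% of all). The B box of tRNA genes, searched as GTTCGANNC, was in 1.15% of member promoters (2.76% of all). It was in none of the 13 with a peak, against 3.4% of all genes with a peak. A TTATATAA match can overlap a TATAAA match, as it does in ND-SGDH. In the printed stretches the search found CAGCTG 44 bp before ND-51 and TTATATAA 86 bp before ND-SGDH. No listed motif was found in those of COX6B and COX7B.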

How the data were processed

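Bdp1-GFP was mapped by ChIP-seq in 3 biological replicates, from chromatin sonicated to 200 to 800 bp per the labels. The authors deposited peak lists, of which the 5 on assembly dm6 were read (3 replicate, 1 pooled and 1 optimal). Their seventh column is a signal value made by the authors' peak caller, on a scale that no source states. The aligner, the caller and the cut-off of the reproducibility step were not given in the sources read for this work. The control library was not analysed here. All peaks lay within the chromosomes of the Ensembl release 115 annotation.

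Overlaps were computed in Python 3.11.15 with numpy 2.4.6, pandas 2.3.3 and scipy 1.17.1 and checked on simulated data. Ranks follow the signal. The members, lists and motifs were chosen with earlier results of these data known. The genes named are all members with an optimal peak, those with a relaxed region in all replicates, complex II, up to 4 without a region per complex, and pathway genes with an optimal peak. 2 listed names, Nc73EF and spargel, were not found. A name ending in L, or L and a digit, marks a duplicate, except ND-MNLL. Alternatives covered the peak set, window, 5' ends, scale, left-out replicates and motif window.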

Additional observations from a re-analysis of the deposited data

How the results depend on the processing

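Of the summary values recomputed under each alternative, 87 stayed and 18 moved. Staying meant within 1.5 times the main count or share, within 1 SD or, for the difference from the other protein-coding genes, the same sign. That difference was 0.909 points in the main analysis and 2.04 points among the strongest 1603 peaks of each replicate. A main count of 0, as for complexes II and III and the duplicates, had to stay at 0 wherever peaks or windows were only removed. In the stronger 1603 of the optimal peaks, 8.05% of the members, 10% of complex I, 6.67% of complex V and 11.1% of the members other than duplicates had a peak, against 6.8% of all protein-coding genes. Leaving out 1 replicate at a time gave 9.2 to 11.5% for all members, 12.7 to 15.9% for the members other than duplicates and 6.67 to 20% for complex V, while the share of all protein-coding genes fell to 9.1, 9.83 and 7.95% without replicates 1, 2 and 3. Complex V, above that share in the main list, was below it without replicate 2 or replicate 3. ATPsynC and ATPsynF were lost without replicate 2 or replicate 3, COX7B without replicate 1 or 3, and ND-B17 and ND-SGDH without any one of them. In the 500 bp window 4.17% of the duplicates had a peak (COX7AL2), against 17.1% of all protein-coding genes. In the separate replicates, 9.2% of members had a peak among the strongest 1603. Among all relaxed ones 40.2% had one, against 38.1% of all protein-coding genes. The median signal of members over that of all genes with a peak was 1.06, and 0.968 to 1.18 with a replicate left out, falling below 1 without replicate 2. The median summit was 54 bp upstream (-54) from the relaxed summits of replicate 1. Within 100 bp of the 5' end the respiratory gene element was in 10.3% of members, CACGTG in 1.15% and TATAAA in 29.9%, in windows shorter than the main one. The shares of all protein-coding genes there were 2.31, 2.88 and 29.2%. With neighbours within 250 bp, an alternative chosen after seeing the data like that of leaving out ND-B22, 9.23% of members that are not head-to-head had a peak. Among all protein-coding genes that are not head-to-head by that distance the share was 11.2%. The means of single genes moved by less than 1 SD under every alternative, which for a replicate left out of 3 holds by construction. Samples could not be paired across groups, because all of them form 1 group. Differences between gene sets were taken within each replicate, so the sign-flip tests were paired by replicate. With 3 replicates and no read totals, differences of the size seen between complexes could not be resolved.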
